A study of Astyanax mexicanus with 12 samples.

Results

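The form by environment interaction asks, gene by gene, whether cave and surface livers of the fish Astyanax mexicanus differed in the same way in wild-caught and in laboratory fish. It is the cave minus surface difference in wild-caught fish minus the cave minus surface difference in laboratory fish, on a log2 scale. A positive value means that cave livers stood higher, relative to surface livers, in wild-caught than in laboratory fish. Of 27420 genes in the table, 12895 were tested, those with a level of 1 TPM or higher in 3 libraries or more. TPM is a transcript abundance corrected for transcript length and for the total of the library.

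Poly(A) RNA was sequenced from 12 livers of adult fish, 3 in each of 4 groups. The groups were wild-caught cave fish titled Pachón (called cave wild here), wild-caught surface fish (surface wild), laboratory cave fish of the same title (cave lab) and laboratory surface fish (surface lab). All were fasted for 12 hours before dissection, and the labels name no treatment and no altered gene. Environment means wild-caught against laboratory; the labels give no place of capture, stock, diet, age, sex or sequencing batch, and surroundings, stock and ancestry cannot be told apart. The labels do not say how the 3 livers of a group relate to each other, so p-values measure only the spread between these livers.

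Surface fish live in rivers with light and a varied food supply, while cave forms live in darkness where food is scarce, and Pachón cave fish are known for fat storage and altered glucose control. The liver makes plasma proteins and lipoproteins, clears nitrogen from amino acids, stores glycogen and synthesises sterols, and its transcripts respond strongly to feeding. A gene can differ between forms in every setting, in a single setting, or in opposite directions in different settings, and the last 2 patterns are what an interaction measures.

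Levels below are scaled TPM, the deposited value divided by a median-of-ratios factor for its library (0.58 to 0.705 in cave wild and 0.965 to 1.42 in the other libraries). Tests were made on log2(scaled TPM + 1), a scale that understates the change of low genes. Hepatocyte markers (22 genes) were abundant in every library, but their sum differed between groups. It was 190259 to 256971 scaled TPM in cave wild and 85286 to 109670 in surface wild livers. In cave lab livers it was 106092 to 129065 and in surface lab livers 117404 to 148844. Division by the smaller factors of cave wild raised its sums, so their excess over those of the laboratory groups depends on the scaling. Surface wild livers 1 and 2 lay at -112 and -101 on the first principal component, surface wild 3 at -36.9 and the other 9 livers between -3.57 and 55.5. The egg yolk gene vtg3 stood at 2232, 2965 and 751 in cave wild, 8.07, 71.5 and 81.2 in surface wild, 83.4, 472 and 433 in cave lab and 485, 4.09 and 625 in surface lab livers, and whether the sex of the fish was balanced is not known. In bulk tissue, fewer cells of a type and less RNA per cell cannot be told apart. A TPM table does not carry read depth, which is unknown here.

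The interaction was called, at a limma p adjusted by Benjamini-Hochberg below 0.05, for 271 of the 12895 tested genes (2.1%). In 186 of them (1.44% of those tested) cave livers stood relatively higher in wild-caught fish and in 85 (0.659%) relatively lower. At an unadjusted p below 0.05 there were 2517 genes (19.5%). Called interactions had a median absolute size of 2.38 and ran from 1.04 to 10.91 on the log2 scale, while the median signed interaction over all tested genes was -0.02. The split by direction depends on the scaling: with TPM as deposited, where the median of all genes moves to -0.61, 115 genes were called higher and 540 lower.

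The 271 genes fall into classes by the calls on the form difference within each environment, which were made at the same threshold. Wild-caught cave and surface livers differed in 2311 genes (17.9%; 10.1% higher and 7.85% lower in cave livers) and laboratory ones in 760 (5.89%; 3.48% higher and 2.41% lower). Wild-caught and laboratory livers differed in 7.28% of genes in cave and 18.3% in surface fish. Of the genes with a called interaction, 17 (0.132% of those tested) differed in both environments in opposite directions and are called reversing. A further 145 (1.12%) differed in wild-caught fish alone and 95 (0.737%) in laboratory fish alone. The difference was called in both with the same sign but another size in 11 genes (0.0853%) and in neither in 3 (0.0233%). Calls in both environments were made for 337 genes, 14.6% of the wild-caught and 44.3% of the laboratory calls, and 320 of these kept their sign. All 17 that did not had a called interaction.

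A call in one environment alone does not by itself show a difference between environments. Of the 1974 genes called in wild-caught and not in laboratory fish, 1829 had no called interaction, and of 423 with the opposite pattern 328 had none. Nor does a missed call show that forms were alike. The 95% interval of the laboratory difference lay within -1 to 1 for 47 of the 145 wild-only genes, and that of the wild-caught difference for 53 of the 95 laboratory-only genes. In 117 of the 145 wild-only genes and 57 of the 95 laboratory-only genes the estimate in the other environment had the opposite sign. Both classes required a called interaction, which itself favours opposite signs. Among genes without a called interaction, cave livers were lower in wild-caught and higher in laboratory fish in 2318, and the reverse in 2331. They were higher in both in 3767 and lower in both in 4208. By a rule of size and overlap, in place of calls within each environment, more genes than the reversing class reversed. A called interaction with opposite signs, a form difference of at least 1 and no overlap in both environments was found in 25 genes.

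**Figure D1:**
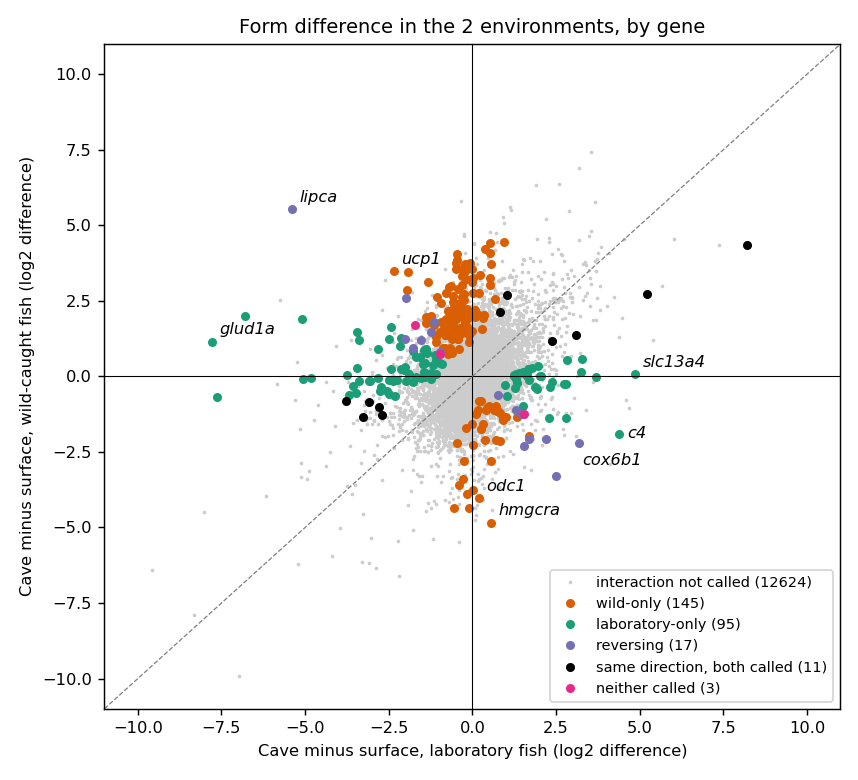
Each point is a tested gene, with the cave minus surface log2 difference of laboratory fish on the x axis and of wild-caught fish on the y axis, and the dashed line marks equal differences. The 17 reversing genes sit in the upper left and lower right quadrants, while the 145 wild-only genes spread mainly up and down and the 95 laboratory-only genes mainly to the left and right. Many lie off the axes, such as ucp1 at a laboratory difference of -2.34 and c4 at a wild-caught difference of -1.92.

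The number of called genes rested on single libraries. Leaving out surface wild 3 raised it from 271 to 1338, which included all 271. Leaving out cave wild 1, cave wild 3, surface wild 1, surface wild 2, cave lab 1, cave lab 2, cave lab 3 or surface lab 3 lowered it to 158, 113, 173, 174, 119, 175, 124 and 176. With surface wild 1 and 2 both left out it was 98 (59 of them among the 271), and with vtg3 as a covariate it was 68 (61 among the 271). In wild-caught fish vtg3 itself separated the forms, at 751 to 2965 in cave wild and 8.07 to 81.2 in surface wild livers. The covariate fit therefore cannot tell a form difference from one that goes with vtg3. Each of the 271 kept its sign in all 23 alternative fits in which it was tested, and 88 remained called in every one of the 12 fits without 1 library.

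**Figure D2:**
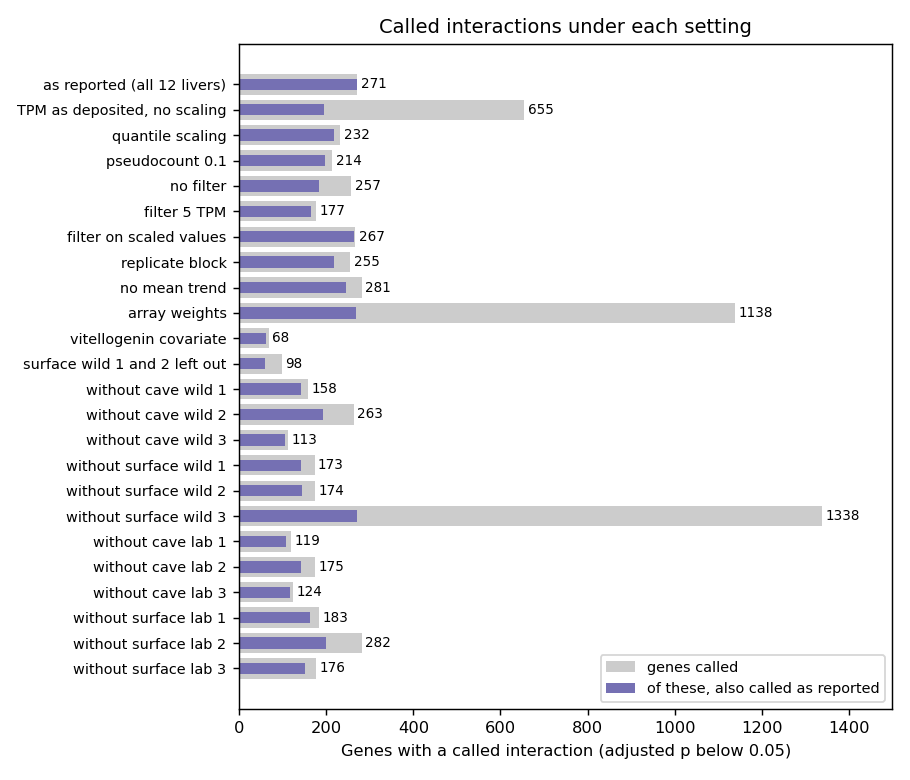
Grey bars give the number of genes with a called interaction under each setting, and the narrow purple bars the part of them among the 271 reported. The count ran from 68 with vitellogenin as a covariate to 1338 without surface wild 3.

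The largest interaction was that of lipca (ENSAMXG00000012304), hepatic lipase, which hydrolyses the lipids of circulating lipoproteins. It stood at 459, 352 and 272 scaled TPM in cave wild livers 1, 2 and 3, at 1.5, 2.17 and 56 in surface wild, at 0.252, 0.678 and 0.69 in cave lab and at 105, 62.6 and 37.4 in surface lab livers. Every cave liver was thus above every surface liver in wild-caught fish and below every one in laboratory fish. The cave minus surface difference was 5.53 ± 0.93 (log2 ± standard error, n = 3 livers a group; adjusted p = 0.00349) in wild-caught and -5.38 ± 0.93 (adjusted p = 0.00501) in laboratory fish, and the interaction was 10.91 ± 1.31 (adjusted p = 0.00263). The call held in all 23 alternative fits.

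A second lipid gene, vldlr, the receptor for very low density lipoprotein, reversed the other way. It stood at 1.45, 0.284 and 2.44 in cave wild, 15.5, 7.73 and 4.48 in surface wild, 3.21, 6.3 and 5.08 in cave lab and 0.617, 0.698 and 0.979 in surface lab livers. The groups did not overlap in either environment, and cave livers were the low ones in wild-caught and the high ones in laboratory fish (-2.06 ± 0.42, adjusted p = 0.00914, and 1.7 ± 0.42, adjusted p = 0.0366). The interaction of vldlr was -3.76 ± 0.6 (adjusted p = 0.0122). It was picked for description after its values were seen, as were the other genes marked so below. Some genes not marked below were picked in that way too, as were the paralogues given for comparison. Among them were hspa5, cox4i2, sdhaf1, shmt1, gpx3, fbp1a, ugt1b2, hmox2a, eif2ak3, dnajb9a, anxa4 and bmp15.

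Parts of the machinery that cuts and presents peptides to T cells reversed in the same direction as vldlr. The immunoproteasome subunit psmb8a (ENSAMXG00000014118) stood at 26.5, 22.5 and 5.92 in cave wild, 46.3, 101 and 68.1 in surface wild, 16.6, 5.77 and 22.8 in cave lab and 1.94, 1.3 and 3.23 in surface lab livers. Its form difference was -2.07 ± 0.58 (adjusted p = 0.0324) in wild-caught and 2.21 ± 0.58 (adjusted p = 0.0472) in laboratory fish, and the interaction was -4.28 ± 0.82 (adjusted p = 0.0241). Surface livers spanned the whole range of the gene, highest in the wild-caught and lowest in the laboratory group (wild-caught minus laboratory 4.5, adjusted p = 0.00174), whereas cave livers of the 2 environments overlapped (0.22, adjusted p = 0.858). Without surface wild 2, cave lab 1, cave lab 3 or surface lab 1 the interaction of psmb8a was no longer called.

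One of several genes annotated as b2m (ENSAMXG00000011344), the light chain of class I histocompatibility molecules, was chosen after its values were seen. It stood at 5.13, 12.6 and 4.94 in cave wild, 58.3, 67.2 and 119 in surface wild, 12.5, 4.5 and 35.6 in cave lab and 1.7, 0.783 and 2.14 in surface lab livers. As for psmb8a, the ends of the range were surface fish, with surface wild livers highest and surface lab livers lowest. The form difference was -3.31 ± 0.6 (adjusted p = 0.00508) and 2.5 ± 0.6 (adjusted p = 0.0306), and the interaction -5.81 ± 0.85 (adjusted p = 0.00745), called in all 23 alternative fits. Reads of b2m copies with similar sequence may have been divided between them by the authors' estimation.

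The proteasome subunit psmb12, which belongs to the class wild-only, stood at 10.4, 6.04 and 3.58 in cave wild, 12.7, 22.2 and 21.7 in surface wild, 7.21, 4.08 and 8 in cave lab and 2.41, 3.19 and 2.92 in surface lab livers (interaction -2.35 ± 0.51, adjusted p = 0.0408). The laboratory difference was 0.92 ± 0.36 (adjusted p = 0.185), although cave lab and surface lab livers did not overlap. Its interaction was called in 4 of the 12 fits without 1 library, those without cave wild 1, surface wild 1, surface wild 3 and cave lab 2. In the RefSeq gene order of the assembly AstMex3_surface, in which 137 of the 162 called genes with a symbol of their own were found, psmb12 and psmb8a were the sole pair within 10 protein-coding genes, with 1 gene, psmb13a, between them. Next to psmb12 on the other side lies psmb9a, another immunoproteasome subunit, whose interaction was -0.94 ± 0.5 (adjusted p = 0.326).

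Levels of immune cell markers were set beside these genes. Lymphocyte markers (16 genes, with rag1 at 0 in every library) summed to 8.95 to 19.4 scaled TPM in surface wild and 2.41 to 6.61 in surface lab livers, against 5.5 to 9.85 in cave wild and 10.7 to 12 in cave lab livers. In surface wild 1, 2 and 3 the sums were 18.4, 8.95 and 19.4, beside 46.3, 101 and 68.1 for psmb8a. The defining B cell marker cd79a ran from 0 to 2.54 and the T cell kinase lck from 0.148 to 1.39. Macrophage markers (16 genes, none at 0 in every library) summed to 47.8 to 95.6 in cave wild, 175 to 211 in surface wild, 136 to 185 in cave lab and 263 to 339 in surface lab livers. The surface lab sums were carried by lgmn (160, 121 and 239) and, in 2 of the livers, csf1ra (69.7, 84.8 and 0.777). Other macrophage markers were low there, such as MPEG1, at 2.89, 1.39 and 3.88 against 7.54, 4.1 and 13.2 in surface wild livers. The 12 macrophage markers that were tested had a median interaction of -1.21, and none was called by limma (6 at an unadjusted p below 0.05). The part of these cells in the results was not tested.

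2 reversing genes act in mitochondria. The subunit of cytochrome c oxidase cox6b1 (ENSAMXG00000041109) stood at 18.6, 29.3 and 11.9 in cave wild, 141, 26 and 192 in surface wild, 65.6, 46.6 and 33.6 in cave lab and 1.47, 5.78 and 7.58 in surface lab livers. In wild-caught fish surface wild 2 fell within the range of the cave livers, and the difference was called narrowly (-2.2 ± 0.7, adjusted p = 0.0497), while the laboratory groups stood apart (3.19 ± 0.7, adjusted p = 0.0197). The interaction was -5.39 ± 0.99 (adjusted p = 0.0194) and was not called without cave wild 3 or cave lab 1. Its paralogue cox6b2, at 111 to 159 in cave wild and 40 to 65.8 in the other livers, had an interaction of 1.37 ± 0.4 (adjusted p = 0.101).

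The mitochondrial sodium-calcium exchanger slc8b1 (ENSAMXG00000031619) had the smallest standard error of the named reversing genes. It stood at 6.96, 6.98 and 7.34 in cave wild, 1.26, 0.867 and 1.94 in surface wild, 5.32, 5 and 6.22 in cave lab and 10.6, 15.1 and 14.8 in surface lab livers. Cave livers of both environments kept within 5 to 7.34, and the surface groups lay on either side of them. The form difference was 1.81 ± 0.23 (adjusted p = 7.8e-04) and -1.14 ± 0.23 (adjusted p = 0.013), and the interaction 2.95 ± 0.33 (adjusted p = 0.00184) was called in all 23 alternative fits. Between wild-caught and laboratory fish slc8b1 differed by -2.63 in surface livers (adjusted p = 1.1e-04) and by 0.32 in cave livers (adjusted p = 0.418).

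For dop1b, of a family known from yeast for membrane traffic, the levels were 5.62, 3.8 and 2.4 in cave wild, 12.1, 14.4 and 5.92 in surface wild, 14.7, 15.5 and 14.9 in cave lab and 5.89, 3.9 and 5.07 in surface lab livers. Cave lab livers were highest, and cave wild and surface lab livers lay together at the low end. The form difference was -1.23 ± 0.33 (adjusted p = 0.0284) and 1.44 ± 0.33 (adjusted p = 0.0251), with an interaction of -2.67 ± 0.47 (adjusted p = 0.0181).

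The other reversing genes were picked after their values were seen, as all members of the class. One of several genes named dhrs13b, of the short-chain dehydrogenases, stood at 41.7 to 57.2 in cave wild, 5.14 to 9.95 in surface wild, 10.3 to 22.8 in cave lab and 29.2 to 102 in surface lab livers (interaction 4.56 ± 0.64, adjusted p = 0.00623). One of several genes named ggh, gamma-glutamyl hydrolase, which trims the glutamate tail of folates, stood at 1657, 798 and 2056 in cave wild, 446, 813 and 609 in surface wild, 423, 555 and 653 in cave lab and 1529, 1458 and 1715 in surface lab livers. Its wild-caught groups overlapped by 1 liver each (cave wild 2 and surface wild 2), and the interaction, 2.75 ± 0.53 (adjusted p = 0.0242), held in 5 of 12 fits without 1 library, those without cave wild 2, surface wild 2, surface wild 3, cave lab 3 and surface lab 2. At lower levels, kank1b (2.7), nexmifa (2.71) and rreb1b (1.79, not called without cave wild 3 or cave lab 1) had positive interactions and the RNA-binding gene qki2 (-2.4) a negative one. The remaining 4 have no name in the table, with interactions of -3.85, 3.26, -2.77 and -1.39.

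Of the 17 reversing genes, 8 stood higher in cave livers in wild-caught fish and 9 lower. In 15 the libraries of the forms did not overlap in either environment. The exceptions were cox6b1 and ggh, both overlapping in wild-caught fish. The class was itself chosen by called differences in both environments, which favours genes without overlap. Of all tested genes, 32.1% did not overlap in wild-caught and 31.8% in laboratory fish, each environment taken alone. The class had 40 genes with TPM as deposited, 75 with library weights, 11 with a filter at 5 TPM, 7 with no filter, 7 without surface wild 1 and 2 and 1 with the vtg3 covariate. Without 1 library it ran from 5 (without cave lab 1) to 56 (without surface wild 3).

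**Figure D3:**
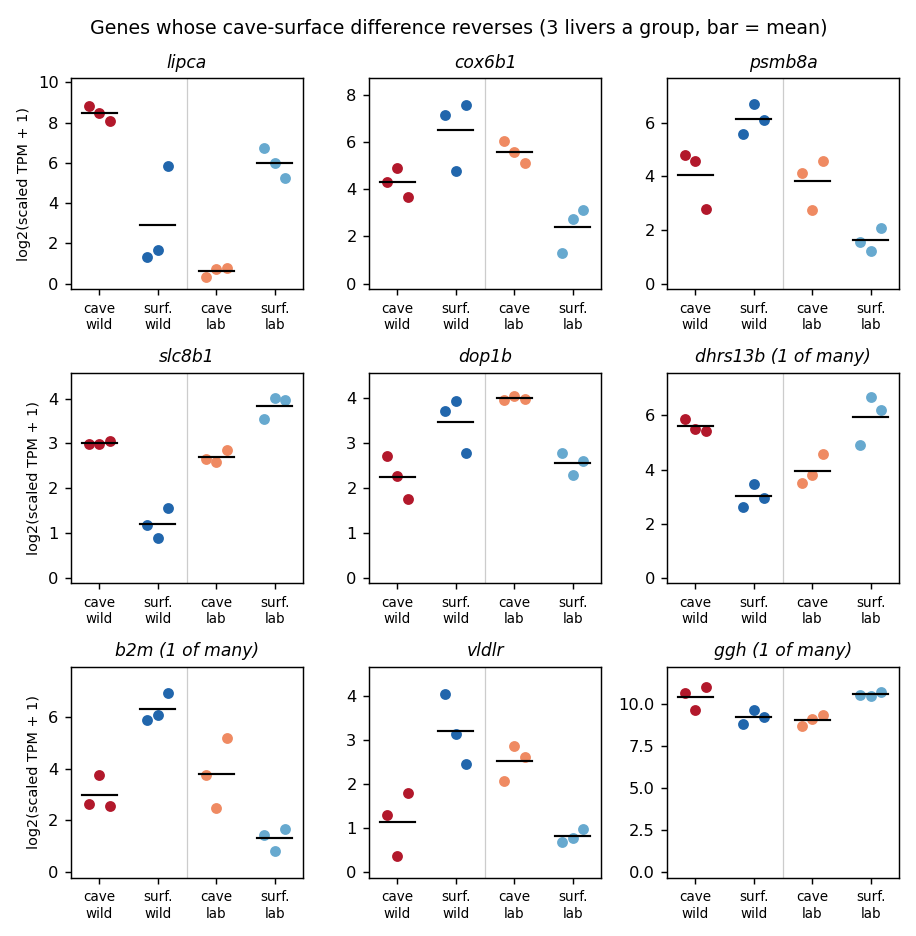
Levels of 9 reversing genes in the 12 livers, as log2(scaled TPM + 1), with 1 dot a liver and a bar at the group mean (3 livers). Within each panel the order of cave and surface livers on the left (wild-caught) is opposite to that on the right (laboratory), and lipca spans the widest range.

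Among wild-only genes, 108 had a positive and 37 a negative interaction. All 145 but 1 had no overlap between forms in wild-caught fish, against 32.1% of all tested genes. The group whose mean log2 level lay farthest from the mean of the other 3 groups was surface wild in 88 genes (60.7%, 60 of them lower there), against 42.6% of all tested genes. It was cave wild in 56 (38.6%, 47 of them higher there), against 20% of all tested genes, and the class was itself chosen by the wild-caught difference. Surface wild 3 was the surface wild liver nearest to cave wild in 91 of the 145 (62.8%), against 56% of all tested genes. The class held 363 genes with TPM as deposited, 757 with library weights, 38 without surface wild 1 and 2 and 21 with the vtg3 covariate, and from 50 (without cave wild 3) to 1038 (without surface wild 3) when 1 library was left out.

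The wild-only gene with the largest interaction was ucp1 (ENSAMXG00000005590), a mitochondrial uncoupling protein that makes heat in brown fat of mammals and is expressed in the liver of carp. It stood at 636, 699 and 868 in cave wild, 89.8, 21.3 and 135 in surface wild, 1201, 427 and 490 in cave lab and 4912, 1162 and 5749 in surface lab livers. Surface livers thus held both the lowest and the highest levels, with cave livers between them except that cave lab 1 stood just above surface lab 2. The wild-caught difference was 3.49 ± 0.73 (adjusted p = 0.00999), the laboratory one -2.34 ± 0.73 (adjusted p = 0.0922) and the interaction 5.83 ± 1.03 (adjusted p = 0.0184), which was not called without cave wild 3. In surface fish ucp1 was lower in wild-caught than in laboratory livers by 5.62 on the log2 scale (-5.62, adjusted p = 0.00175). Its relative ucp2, which was not called, had an interaction of 0.48 ± 0.42 (adjusted p = 0.558).

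The sum of adipocyte markers, 11 genes with lepb at 0 in every library, was also highest in surface lab livers. It was 853 to 7385 scaled TPM there, against 473 to 614 in cave wild, 414 to 659 in surface wild and 314 to 412 in cave lab livers. Most of the surface lab sums (2180, 7385 and 853) was the single gene fabp11a (1778, 7129 and 554). The sums therefore do not show that the other markers were higher there. In the same livers ucp1 stood at 4912, 1162 and 5749, the opposite order to fabp11a. The part of fat cells in the ucp1 result was not tested.

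2 members of the Id family, which block the DNA binding of partner transcription factors, were highest in wild-caught cave livers. For id2b the levels were 17.9, 54.1 and 13.5 in cave wild, 0.378, 0.201 and 2.14 in surface wild, 0.939, 0.433 and 0 in cave lab and 0.394, 1 and 1.51 in surface lab livers (interaction 4.28 ± 0.71, adjusted p = 0.0146). Levels of id4 were 4.79, 22.8 and 8.45 in cave wild, 0.099, 0.201 and 0.508 in surface wild, 0.901, 1.06 and 0.586 in cave lab and 3.8, 4.46 and 2.71 in surface lab livers (interaction 4.44 ± 0.58, adjusted p = 0.004). In both genes cave wild livers stood above every other liver. The wild-caught difference was 3.84 ± 0.5 (adjusted p = 8.9e-04) for id2b and 3.12 ± 0.41 (adjusted p = 8.8e-04) for id4. In laboratory fish the difference was -0.45 ± 0.5 (adjusted p = 0.688) for id2b, with overlap between forms. For id4 it was -1.32 ± 0.41 (adjusted p = 0.0894), and every surface lab liver stood above every cave lab liver. The interaction was called in all 23 alternative fits for id4 and in 21 for id2b. The copy id2a had an interaction of -0.37 ± 0.38 (adjusted p = 0.635).

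Homogentisate dioxygenase, hgd, a step of tyrosine breakdown, stood at 1310, 584 and 824 in cave wild, 86, 40.7 and 106 in surface wild, 207, 294 and 221 in cave lab and 278, 245 and 560 in surface lab livers. Its wild-caught difference was 3.56 ± 0.46 (adjusted p = 7.8e-04) and its interaction 4.06 ± 0.65 (adjusted p = 0.0122). Cave wild livers were the highest and surface wild livers the lowest. With the same order, si:ch73-71d17.1 had an interaction of 4.24 ± 0.72 (adjusted p = 0.0154) at 129 to 257 in cave wild and 4.56 to 24.9 in surface wild livers. For si:ch211-286f9.2 (4.83 ± 0.86, adjusted p = 0.0188) surface lab livers were highest, at 96.1 to 155, and surface wild livers lowest, at 0.876 to 13.7, and the call was lost without cave wild 3 or cave lab 1.

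Of the 6 named wild-only genes that stood lower in cave livers, 5 had their highest levels in surface wild livers, above every other liver. Ornithine decarboxylase odc1 (ENSAMXG00000014026), which starts polyamine synthesis, stood at 3.12, 0.666 and 2.9 in cave wild, 69.2, 56.2 and 28 in surface wild, 1.14, 1.42 and 1.6 in cave lab and 2.34, 0.755 and 0.515 in surface lab livers. The other 9 livers were all at 3.12 or below. The wild-caught difference was -4.03 ± 0.43 (adjusted p = 2.5e-04), the laboratory one 0.2 ± 0.43 (adjusted p = 0.849; 95% interval -0.74 to 1.14), and the interaction -4.23 ± 0.61 (adjusted p = 0.007).

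The amino acid transporter chain slc3a2b (ENSAMXG00000007338) showed the same order. It stood at 1.71, 1.13 and 2.24 in cave wild, 39.7, 26.9 and 17.7 in surface wild, 2.34, 2.58 and 2.05 in cave lab and 3.11, 2.48 and 3.58 in surface lab livers. Surface wild livers lay above all others, and the interaction of -3.1 ± 0.41 (adjusted p = 0.00409) was called in all 23 alternative fits. The laboratory difference was -0.28 ± 0.29 (adjusted p = 0.646), with a 95% interval of -0.91 to 0.34. Its copy slc3a2a, at 8.4 to 40.2 in wild-caught livers, was not called (1.06 ± 0.79, adjusted p = 0.491).

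In surface wild livers the sterol synthesis gene hmgcra (ENSAMXG00000007971), whose enzyme sets the rate of the pathway, varied widely. It stood at 0.0345, 8.88 and 0.0287 in cave wild, 167, 72.2 and 19 in surface wild, 0.664, 1.57 and 0.249 in cave lab and 0.107, 0.0282 and 0.434 in surface lab livers. Surface wild livers were above all others, but cave wild 2 stood apart from the low livers. The interaction was -5.41 ± 1.22 (adjusted p = 0.0465) and held in only 2 of 12 fits without 1 library, those without cave wild 2 and surface wild 3. The endoplasmic reticulum co-chaperone dnajb9b, at 1.81 to 3.96 in cave wild, 32.9 to 102 in surface wild, 5.92 to 14.9 in cave lab and 5.09 to 22.8 in surface lab livers, had an interaction of -4.26 ± 0.81 (adjusted p = 0.0226). That call held in 6 of 12 such fits, those without cave wild 1, cave wild 2, surface wild 3, cave lab 2, surface lab 2 and surface lab 3.

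A relative of a sterol isomerase, ebpl, stood at 2.31, 4.78 and 2.72 in cave wild, 16.3, 8.69 and 5.96 in surface wild, 7.01, 4.56 and 7.62 in cave lab and 1.15, 1.99 and 2.64 in surface lab livers. The laboratory difference, 1.34 ± 0.36, narrowly missed the threshold (adjusted p = 0.0513) and had the opposite sign to the wild-caught one (-1.35 ± 0.36, adjusted p = 0.027). The interaction was -2.69 ± 0.51 (adjusted p = 0.0229) and was not called without cave wild 1, cave wild 3, cave lab 1, cave lab 3 or surface lab 1.

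**Figure D4:**
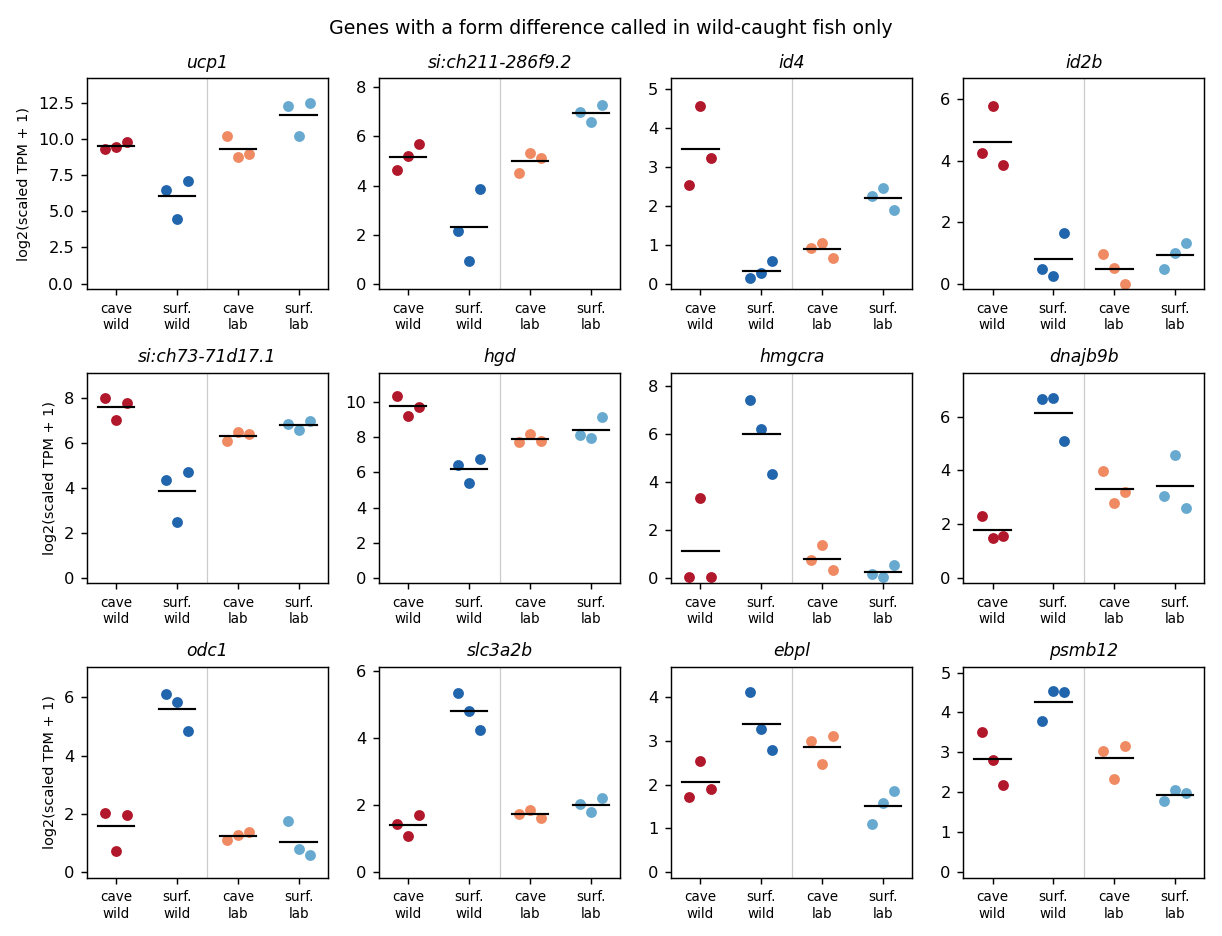
Levels of the 12 named wild-only genes in the 12 livers, as log2(scaled TPM + 1), with 1 dot a liver and a bar at the group mean (3 livers). In the first 6 panels cave wild livers stand above surface wild livers and in the last 6 below them, and for id2b, odc1 and slc3a2b a single group lies outside the rest.

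Laboratory-only genes numbered 61 with a positive and 34 with a negative interaction. The forms did not overlap in laboratory fish in any of the 95, against no overlap in 31.8% of all tested genes. The group with the mean farthest from the other 3 was surface lab for 54 genes (56.8%, 47 of them higher there) and cave lab for 41 (43.2%, 27 higher there), against 15.4% and 22% of all tested genes. This class was chosen by the laboratory difference, and the farthest group can still overlap with others, as in c4, urahb and nrp1b below. The class held 200 genes with TPM as deposited, 225 with library weights, 49 with a filter at 5 TPM, 47 without surface wild 1 and 2 and 39 with the vtg3 covariate, and 52 (without cave wild 3) to 163 (without surface wild 3) when 1 library was left out.

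Glutamate dehydrogenase glud1a (ENSAMXG00000021266), which releases ammonia from glutamate, was all but missing from laboratory cave livers. It stood at 172, 92.2 and 240 in cave wild, 40, 65.8 and 128 in surface wild, 0, 0.101 and 0 in cave lab and 272, 147 and 282 in surface lab livers. The laboratory difference was -7.77 ± 0.47 (adjusted p = 4.2e-06), the wild-caught one 1.15 ± 0.47 (adjusted p = 0.104) and the interaction 8.92 ± 0.66 (adjusted p = 8.4e-05), called in all 23 alternative fits. Cave fish of the 2 environments differed by 7.25 (adjusted p = 1.8e-05). The copy glud1b was present in every liver, at 386 to 465 in cave lab, and its interaction was 2.13 ± 0.66 (adjusted p = 0.116).

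The unnamed gene ENSAMXG00000033768, picked after its values were seen, followed glud1a in size. It stood at 75.3, 77.2 and 48 in cave wild, 21.9, 1.28 and 84.8 in surface wild, 0, 0.152 and 0 in cave lab and 90.4, 128 and 137 in surface lab livers. Cave lab livers alone lacked it (laboratory difference -6.81 ± 0.94, adjusted p = 0.00109; interaction 8.82 ± 1.33, adjusted p = 0.00903).

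The sulphate transporter slc13a4 (ENSAMXG00000001709) showed the mirror image, with levels above 1 in laboratory cave livers alone. It stood at 0.121, 0.213 and 0.0431 in cave wild, 0.171, 0.0365 and 0 in surface wild, 40.4, 26.1 and 41 in cave lab and 0.0984, 0.205 and 0.424 in surface lab livers. Its interaction of -4.8 ± 0.3 (adjusted p = 1.7e-05) had the smallest adjusted p of the named genes, and its wild-caught difference was 0.07 ± 0.21 (adjusted p = 0.821; 95% interval -0.38 to 0.53). It was called in all 23 alternative fits.

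The glycosyltransferase b3gnt3.4 was also highest in cave lab livers, at 9.82, 9.68 and 10.6, against 1.27, 3.77 and 1.08 in cave wild, 2.99, 3.02 and 1.43 in surface wild and 0.787, 0.628 and 0.525 in surface lab livers (interaction -3.01 ± 0.44, adjusted p = 0.00745). For cox4i1l, a form of cytochrome c oxidase subunit 4, the levels were 16.3, 9.88 and 7.08 in cave lab and 0.948 to 4.97 in the other 9 livers (interaction -2.68 ± 0.53, adjusted p = 0.0255), a call lost without cave wild 2, cave wild 3, cave lab 1, cave lab 2 or surface lab 3. The complement gene c4 stood at 24.7, 111 and 111 in cave wild, 191, 338 and 269 in surface wild, 212, 79.1 and 160 in cave lab and 35, 0.19 and 6.19 in surface lab livers. Surface lab livers and cave wild 1 were low; the c4 interaction was -6.3 ± 1.42 (adjusted p = 0.0465) and held in 3 of 12 fits without 1 library, those without surface wild 3, surface lab 1 and surface lab 2. Another c4 gene, c4b, had an interaction of -0.65 ± 0.67 (adjusted p = 0.631). The call of zgc:112492 (-4.2 ± 0.93, adjusted p = 0.0432) held in 3 of 12 such fits too, those without surface wild 1, surface wild 3 and cave lab 2.

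Among the laboratory-only genes named by rule and lower in cave livers, urahb, of uric acid breakdown, came next after glud1a. It stood at 14.7, 3.56 and 15 in cave wild, 0.846, 2.2 and 8.18 in surface wild, 0.183, 0.909 and 0.81 in cave lab and 33.8, 12.5 and 10.3 in surface lab livers (interaction 4.92 ± 0.91, adjusted p = 0.0202). The semaphorin and growth factor co-receptor nrp1b stood at 15.7, 14 and 8.49 in cave wild, 4.03, 1.41 and 15.5 in surface wild, 0.977, 1.43 and 0.963 in cave lab and 16.7, 22.3 and 26 in surface lab livers (interaction 4.59 ± 0.77, adjusted p = 0.0146). In both genes cave lab livers lay at the bottom of the range together with 1 surface wild liver, and surface wild 3 stood above the other surface wild livers. The urahb call was lost without cave wild 1, cave wild 3, cave lab 1 or cave lab 3. The copies uraha (1.9 ± 0.91, adjusted p = 0.273) and nrp1a (-0.29 ± 0.27, adjusted p = 0.583) were not called.

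In 3 further genes surface lab livers were highest. Glycogenin gyg2, the primer of glycogen, stood at 38.4, 47.2 and 20.3 there and at 0.486 to 14.9 in the other livers (interaction 4.07 ± 0.74, adjusted p = 0.0194; not called without cave lab 3). Its wild-caught difference, 1.64 ± 0.53, narrowly missed the threshold (adjusted p = 0.0511) and had the opposite sign to the laboratory one (-2.44 ± 0.53). The ubiquitin ligase rnf128a stood at 42.6, 37.5 and 29.4 in surface lab livers and at 3.91 to 19.4 elsewhere (3.19 ± 0.56, adjusted p = 0.0169). For the cytochrome P450 gene cyp4v7, at 824, 498 and 1394 there and 76.2 to 439 elsewhere, the interaction was 3.4 ± 0.76 (adjusted p = 0.0449), a call that held in only 2 of 12 fits without 1 library, those without surface wild 3 and surface lab 2. Its neighbour in name, cyp4v8, was not called (3.89 ± 1.09, adjusted p = 0.0909).

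Some genes called in every fit without 1 library lost the call in 2 other fits, the one with the vtg3 covariate and the one without surface wild 1 and 2. In both fits this was so for id2b (adjusted p = 0.0686 and 0.111), dop1b (0.0603 and 0.103), hgd (0.0614 and 0.0647), vldlr (0.0633 and 0.0607) and rnf128a (0.0898 and 0.0516). With the covariate alone it was so for nrp1b (0.0697) and si:ch73-71d17.1 (0.0686). Without surface wild 1 and 2 alone it was so for odc1 (0.0549), b3gnt3.4 (0.0606), qki2 (0.0856) and nexmifa (0.0507). With the covariate the calls of other genes were lost too, among them ucp1 (adjusted p = 0.0917), gyg2 (0.0894), cox6b1 (0.0993) and psmb8a (0.0546). So were those of psmb12 (0.112), dnajb9b (0.0867), ebpl (0.108), urahb (0.105), si:ch211-286f9.2 (0.0926) and cox4i1l (0.124). All of these but cox6b1 also lost the call without surface wild 1 and 2.

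**Figure D5:**
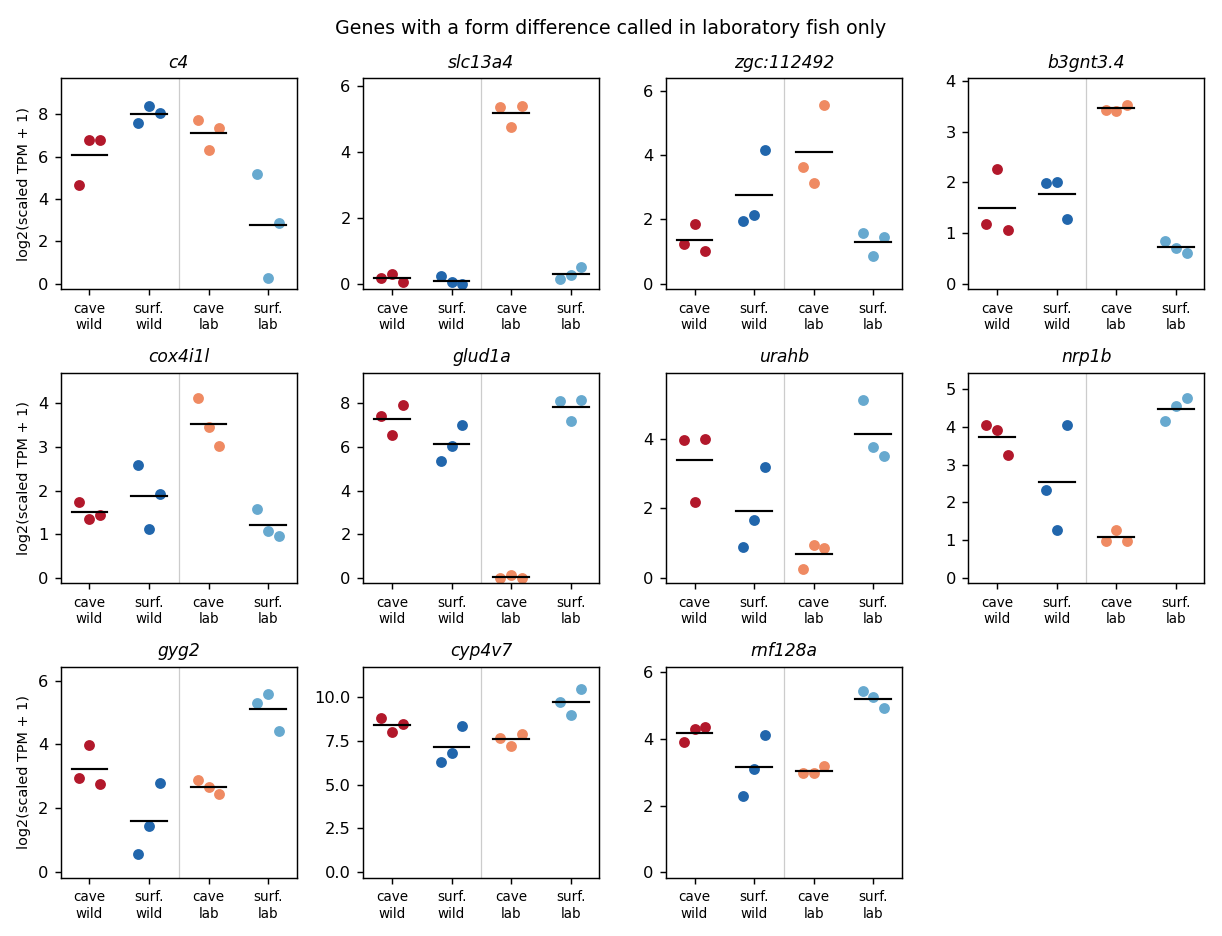
Levels of the 11 named laboratory-only genes in the 12 livers, as log2(scaled TPM + 1), with 1 dot a liver and a bar at the group mean (3 livers). Cave lab livers stand above surface lab livers in the first 5 panels and below them in the last 6, with glud1a near 0 in cave lab and slc13a4 near 0 everywhere else.

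Gene lists of the liver's functions were compared with the 2.1% of all tested genes that were called for the interaction. The median over all tested genes was -0.02 for the interaction and -0.03 for the form difference in either environment. For the form difference, 10.1% of all tested genes were called higher and 7.85% lower in wild-caught fish. In laboratory fish the shares were 3.48% and 2.41%. An unadjusted p below 0.05 for the interaction was found in 19.5%. Sterol synthesis had 1 of 25 tested members called, hmgcra, lower, but the median interaction was -2.8, from a median form difference of -2.46 in wild-caught and 0.33 in laboratory fish. In wild-caught fish 15 of the 25 were called lower in cave livers and in laboratory fish 0 were called in either direction, with 16 at an unadjusted p below 0.05 for the interaction. The sterol methyl oxidase msmo1, chosen after its values were seen, stood at 0.81, 6.3 and 0.56 in cave wild, 237, 53 and 14.8 in surface wild and 0.232 to 2.19 in all laboratory livers (interaction -5 ± 1.16, adjusted p = 0.0506). Without surface wild 1 and 2 the list's median interaction, relative to that of all genes, was -1.32 in place of -2.78, and the wild-caught difference -1.27 in place of -2.43. The 15 members called in wild-caught fish became 6 without cave wild 3, 9 without surface wild 1, and 0 without surface wild 1 and 2 or with the vtg3 covariate.

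The unfolded protein response, by which cells enlarge the folding capacity of the endoplasmic reticulum, had 3 of 51 members called lower and 48 not passing (5.88% called). Besides dnajb9b these were dnajb9a (-2.49, adjusted p = 0.0465) and the stress sensor kinase eif2ak3 (-2.35, adjusted p = 0.0492), each called in 2 of 12 fits without 1 library (surface wild 3 and surface lab 2 for dnajb9a, cave wild 2 and surface wild 3 for eif2ak3). The median interaction of the list was -1.06, with form differences of -1.51 in wild-caught and -0.16 in laboratory fish. Relative to all genes it was -0.65 without surface wild 1 and 2 in place of -1.03. In wild-caught fish 26 of 51 were called lower in cave livers and in laboratory fish 1, against 7.85% and 2.41% of all tested genes. The count of 26 was 11 without cave wild 2, 10 without cave wild 3, 14 without surface wild 1, 12 without surface wild 2, and 1 without both of the last 2 or with the vtg3 covariate. The chaperone hspa5 stood at 9.36 to 88.1 in cave wild, 823 to 1666 in surface wild, 26.3 to 50 in cave lab and 12.4 to 217 in surface lab livers, and its interaction of -5.07 ± 1.32 missed the threshold (adjusted p = 0.0726).

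Ribosomal protein genes had 0 of 77 members called for the interaction by limma, with 54 at an unadjusted p below 0.05. In wild-caught fish 70 of the 77 were called higher in cave livers, against 10.1% of all tested genes. In laboratory fish 0 were called in either direction, and the median interaction was 1.05. Under quantile scaling 12 of the 77 were called higher in wild-caught fish. The median wild-caught difference, relative to all genes, was then 0.56 in place of 1.41, and the median interaction 0.1 in place of 1.07. The wild-caught count was 50 with TPM as deposited, 37 without surface wild 1, 39 without surface wild 2, and 0 without both of them or with the vtg3 covariate. The most abundant member, rps24, stood at 27875, 21269 and 22996 in cave wild, 8888, 8093 and 10316 in surface wild, 5933, 6976 and 8286 in cave lab and 6686, 3949 and 7975 in surface lab livers. Its interaction was 1.17 ± 0.38 (adjusted p = 0.129).

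Amino acid breakdown had 3 of 70 members called, all higher (glud1a, hgd and shmt1), and a median interaction of 1, from 1.1 in wild-caught and 0 in laboratory fish. Relative to all genes the median interaction was 0.61 without surface wild 1 and 2 in place of 1.02. The serine and glycine enzyme shmt1 stood at 389 to 612 in cave wild, 131 to 293 in surface wild, 442 to 457 in cave lab and 621 to 830 in surface lab livers (interaction 2.14, adjusted p = 0.045; called in 1 of 12 fits without 1 library, that without surface wild 3). In gluconeogenesis and glycogen 1 of 20 was called, fbp1a, higher (1.83, adjusted p = 0.045). The antioxidant list had 1 of 29, gpx3, which stood at 2926 to 3029 in cave wild, 1733 to 1901 in surface wild, 1487 to 2278 in cave lab and 3564 to 4341 in surface lab livers (interaction 1.82 ± 0.32, adjusted p = 0.0179; not called without cave lab 3). Xenobiotic metabolism had 1 of 33 (ugt1b2, 3.38, adjusted p = 0.0465), iron handling 1 of 14 (hmox2a, 3.15, adjusted p = 0.0272), lipoproteins 1 of 32 (lipca) and complement 1 of 20 (c4). When 1 library was left out, the call of fbp1a held only without surface wild 3 or surface lab 1, that of ugt1b2 only without surface wild 3 or surface lab 2, and that of hmox2a only without cave wild 1, surface wild 1, surface wild 3 or surface lab 2.

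Oxidative phosphorylation had 2 members called higher and 2 lower of 102 tested, with 98 not passing. The lower ones were cox6b1 and cox4i1l and the higher ones sdhaf1, an assembly factor of complex II (1.32, adjusted p = 0.0482), and cox4i2, another form of cytochrome c oxidase subunit 4 (3.83 ± 0.82, adjusted p = 0.0374). Levels of cox4i2 were 210, 163 and 175 in cave wild, 10, 3.07 and 21 in surface wild, 86.9, 88.5 and 112 in cave lab and 44.7, 58.1 and 154 in surface lab livers. When 1 library was left out, the sdhaf1 call held only without surface wild 3, and the cox4i2 call only without surface wild 3, surface lab 1 or surface lab 2. Thus cox4i2 was called in wild-caught fish, cox4i1l in laboratory fish, and the third form, cox4i1, in neither (interaction 1.04 ± 0.41, adjusted p = 0.193). Outside the lists, and chosen after their values were seen, the mitochondrial outer membrane channels vdac1 (1.97 ± 0.41, adjusted p = 0.0305) and vdac2 (1.92 ± 0.43, adjusted p = 0.0454) were both wild-only. Levels of vdac2 were 1004 to 2027 in cave wild and 274 to 399 in all other livers; each vdac call held in 3 of 12 fits without 1 library, those without cave wild 2, surface wild 3 and surface lab 2.

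Antigen presentation had 2 of 11 members called lower, psmb8a and psmb12, which are also the sole called members among 52 of the proteasome list. The b2m copy described above (interaction -5.81) was not among the 11. Of the 52 proteasome members, 8 were called lower in cave livers of wild-caught fish, against 7.85% of all tested genes. In laboratory fish 0 were called lower and 1 higher, against 2.41% and 3.48%. The median form difference was -1.05 in wild-caught and -1.1 in laboratory fish. The wild-caught count ran from 1 (without cave wild 2, cave wild 3, surface wild 1 or surface wild 2) to 17 (without cave wild 1). The interferon response had 0 of 21 called by limma, with 10 at an unadjusted p below 0.05, and a median interaction of -2.02 from -0.71 in wild-caught and 1.31 in laboratory fish. Its most abundant member, stat2, stood at 8.32 to 20.8 in cave wild, 5.67 to 75.7 in surface wild, 13.5 to 61.1 in cave lab and 11.1 to 18.4 in surface lab livers (-2.02 ± 1.12, adjusted p = 0.345). Livers within a group differed widely here.

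No member was called by limma for glycolysis (20 tested, 7 at an unadjusted p below 0.05), fatty acid synthesis (35, 9), fatty acid oxidation (45, 6), bile acids (16, 3), coagulation (19, 3), the acute phase (17, 5), the clock (44, 4), hypoxia (27, 1), egg yolk and oestrogen response (11, 1), heat shock (51, 16), DNA replication (18, 1) and insulin and growth factors (30, 5). An unadjusted p below 0.05 was found in 19.5% of all tested genes. Of the 44 clock genes, 8 were called higher in cave livers of wild-caught fish (10.1% of all tested genes). In laboratory fish 7 were called higher (3.48% of all tested genes). None was lower, and the median interaction of the clock genes was 0.03. With TPM as deposited 3 were higher and 3 lower in wild-caught fish, and without surface wild 1 and 2, 1 was higher. The lipogenic gene thrsp varied widely within groups, from 180 to 21004 among cave wild livers (-3.08 ± 3.42, adjusted p = 0.657). For acadm, of medium-chain fatty acid oxidation, the wild-caught difference was called (2.43 ± 0.6, adjusted p = 0.0202) and the interaction was not (2.75 ± 0.85, adjusted p = 0.115).

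Among 16 lists of cell type markers, 2 held a called gene, anxa4 of cholangiocytes (2.34 ± 0.46, adjusted p = 0.0259) and bmp15 of germ cells and ovary (1.83 ± 0.39, adjusted p = 0.035), called in 4 and 3 of the 12 fits without 1 library (surface wild 3 in both, with cave wild 2, surface lab 1 and surface lab 2 for anxa4 and cave wild 1 and surface wild 2 for bmp15). Levels of bmp15 were 4.96, 7.03 and 8.75 in cave wild, 0.288, 1.76 and 0.943 in surface wild and 1.83 to 2.57 in laboratory livers. The summed germ cell and ovary markers (19 genes, 4 of them at 0 in every library) were 10.9 to 21.1 in cave wild, 0.891 to 2.25 in surface wild, 7.15 to 8.41 in cave lab and 3.51 to 7.43 in surface lab livers, and vtg3 was highest in cave wild livers. Of the 19 germ cell and ovary markers, 3 were tested, and their median interaction was -0.11, unlike that of bmp15. Their median form difference was 1.08 in wild-caught and 0.75 in laboratory fish. Exocrine pancreas markers (7 genes, none at 0 in every library) ran from 139 to 1263 in cave lab and from 897 to 10665 in the other livers. The highest was surface wild 3, against 2221 and 897 in surface wild 1 and 2. Endocrine pancreas markers (13 genes) summed to 150 in surface wild 3, 0.945 and 0.128 in surface wild 1 and 2 and 58 in surface lab 3. Intestine markers (16 genes) summed to 626 in surface wild 3, 34.5 and 4.73 in surface wild 1 and 2 and 1016 in cave wild 1. The part of these tissues in the interaction was not tested.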

How the data were processed

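The authors deposited one table of TPM values per gene for 12 liver libraries. Per the labels' protocols, stranded mRNA libraries were sequenced as 75 nt single reads; per the submitters' processing notes, bcl2fastq 2.18, STAR 2.6.1c and RSEM were used. Genome build and annotation: not given in the sources used here. Genes reaching 1 TPM in 3 libraries or more were kept (12895, of which 2582 have no name). TPM was divided by median-of-ratios factors from the 13855 genes above 0 in every library, and log2(value + 1) was fitted in R 4.3.3 with limma 3.58.1 (4 group means over all 12 libraries, eBayes with a mean trend, two-sided, Benjamini-Hochberg over all tested genes, threshold 0.05). On simulated data, with 100 genes changed at each size, 24% with an interaction of 2 (log2) and 74% with 4 were recovered. False calls made up 5.8% of the calls in that simulation. These shares hold for the simulated data alone and are not error rates of the calls reported here. The real libraries differed in spread, with library weights from 0.33 in surface wild 3 to 3.8 in cave lab 3.

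Genes named by rule have a symbol of their own, a called interaction and a mean of at least 10 scaled TPM in the highest group, the largest per class first. The leading called members of pathway lists that held several were added, or the most abundant member of a list where none was called. Other genes were named after their values were seen. Gene names come from the table. The members, lists (26 of pathways, 16 of cell types, matched by symbol) and tests were chosen with earlier results of these data known. Results for some genes are not reported here. The alternatives covered scaling, pseudocount, filter, variance model, covariate, replicate block and libraries left out.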

Additional observations from a re-analysis of the deposited data

Results flagged for a closer look

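Each gene here is flagged because its cave minus surface difference differed between wild-caught and laboratory fish by the interaction test itself. Values are interactions on the log2 scale. Reversing genes were lipca (10.91), cox6b1 (-5.39), psmb8a (-4.28), slc8b1 (2.95), dop1b (-2.67), vldlr (-3.76), nexmifa (2.71), kank1b (2.7), rreb1b (1.79), qki2 (-2.4) and single copies of b2m (-5.81), dhrs13b (4.56) and ggh (2.75).

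Wild-only genes with a positive value were ucp1 (5.83), si:ch211-286f9.2 (4.83), id4 (4.44), id2b (4.28), si:ch73-71d17.1 (4.24), hgd (4.06), cox4i2 (3.83), ugt1b2 (3.38), hmox2a (3.15), anxa4 (2.34), shmt1 (2.14), vdac1 (1.97), vdac2 (1.92), bmp15 (1.83) and fbp1a (1.83). Wild-only genes with a negative value were hmgcra (-5.41), dnajb9b (-4.26), odc1 (-4.23), slc3a2b (-3.1), ebpl (-2.69), dnajb9a (-2.49), psmb12 (-2.35), eif2ak3 (-2.35) and NPC1L1 (-1.76).

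Laboratory-only genes were glud1a (8.92), urahb (4.92), nrp1b (4.59), gyg2 (4.07), cyp4v7 (3.4), rnf128a (3.19), slc46a1 (2.63), gpx3 (1.82) and sdhaf1 (1.32), and, with a negative value, c4 (-6.3), slc13a4 (-4.8), zgc:112492 (-4.2), b3gnt3.4 (-3.01), cox4i1l (-2.68) and ccl19b (-2.36). In alpl (1.79) and rgs11 (1.91) the form difference was called in both environments with the same sign, and in gpr155a (-2.79) and NHLRC1 (1.69) in neither.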

How the results depend on the processing

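With TPM as deposited, 655 interactions were called (115 higher, 540 lower; 40 reversing, 363 wild-only, 200 laboratory-only), with 4074 form differences in wild-caught fish and 4618 environment differences in cave fish. A filter at 5 TPM gave 177 (47 lower), 11 reversing, 49 laboratory-only, 362 laboratory form differences and 606 environment differences in cave fish, and no filter 7 reversing genes. Library weights gave 1138 (680 higher, 458 lower; 75 reversing, 757 wild-only, 225 laboratory-only), with 3711, 1578 and 2672 genes for the form difference in wild-caught and laboratory fish and for environment in cave fish. The vitellogenin covariate gave 68 (46 higher, 22 lower; 1 reversing, 21 wild-only, 39 laboratory-only), with 189 wild-caught form differences and 400 environment differences in cave fish. Without surface wild 1 and 2 there were 98 (47 higher, 51 lower; 7 reversing, 38 wild-only, 47 laboratory-only), with 306 wild-caught form differences and 129 environment differences in surface fish. Leaving out 1 library gave 113 to 1338 interactions (74 to 738 higher, 37 to 600 lower), 5 to 56 reversing, 50 to 1038 wild-only and 52 to 163 laboratory-only genes. Simple contrasts then gave 1065 to 4053 (wild-caught form), 432 to 887 (laboratory form), 339 to 1318 (environment, cave) and 684 to 3802 (environment, surface). Requiring the other interval within 1 left 47 wild-only and 53 laboratory-only genes. A rule of opposite signs, a size of at least 1 and no overlap in both environments gave 25 reversing genes. The replicate block gave 255 interactions, 217 of them among the 271. After group means were taken out, livers of equal replicate number correlated at -0.206 to 0.276, with 3 of 18 pairs over 0.1. Those were the pairs of surface wild and surface lab livers (0.148, 0.11 and 0.276 for numbers 1, 2 and 3). Whether livers of equal number share more than the number is not known. Signs reversed for genes that were not called: slco1d1 (-0.16), tefb (-0.41) and ucp2 (-0.06) with TPM as deposited, ambp (-0.05) with quantile scaling, pcna (0.04) and ins (0.25) with library weights, and, without surface wild 1 and 2, fgg (0.5), tefb (-0.62), ndrg1a (-0.56), pcna (0.23), igfals (-0.1), ucp2 (-0.14) and slc3a2a (-0.04). When 1 library was left out, pcna ran from -1.1 (without cave wild 3) to 0.21 (without surface wild 1; 0.18 without cave wild 2) and ins from -2.54 (without surface lab 3) to 0.36 (without surface wild 3). The causes were not tested. The read depth behind TPM is unknown.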

Other observations

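In 11 genes the cave minus surface difference was called in both environments with the same sign but in another size. The tissue phosphatase alpl stood at 0.0689, 0.298 and 0.331 scaled TPM in cave wild, 1.65, 0.849 and 2.07 in surface wild, 0.504, 0.433 and 0.225 in cave lab and 7.87, 11.4 and 7.16 in surface lab livers. Its form difference was -1.01 ± 0.24 (limma adjusted p = 0.0164) in wild-caught and -2.8 ± 0.24 (adjusted p = 2.6e-05) in laboratory fish. The G protein regulator rgs11 was listed at 0 in every cave liver, while its level was 2.07, 2.01 and 0.819 in surface wild and 6.93, 7.47 and 12.4 in surface lab livers. In both genes surface lab livers were the highest. With cave livers at 0, the rgs11 interaction (1.91) was the difference between the surface groups alone (wild-caught minus laboratory -1.91). For alpl, at 0.504 or below in cave livers, wild-caught minus laboratory was -1.97 in surface and -0.17 in cave livers. The interaction of alpl was not called without cave wild 3 or cave lab 3, nor that of rgs11 without cave wild 3, cave lab 1 or cave lab 3.

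Further genes with a called interaction were chosen after their values were seen. The sterol uptake gene NPC1L1 stood at 5.53, 7.98 and 5.83 in surface wild livers and at 0.345 to 2.42 in all others (-1.76 ± 0.36, adjusted p = 0.0268). The folate transporter slc46a1 stood at 13.5, 14.2 and 13.3 in surface lab livers and at 0.927 to 7.14 in all others (2.63 ± 0.6, adjusted p = 0.0469). For the chemokine ccl19b the surface lab livers were lowest, at 1.74, 0.98 and 1.34, against 4.29 to 14 elsewhere (-2.36 ± 0.53, adjusted p = 0.0454). These calls held in 5, 1 and 2 of the 12 fits without 1 library, each of which included the fit without surface wild 3. The hormone gene ins, by contrast, was not called (interaction -1.51 ± 1.98, adjusted p = 0.715). It stood at 51 in surface wild 3 and at 0.144 and 0 in surface wild 1 and 2. Levels of ins were 17 in surface lab 3, 11.3 in cave lab 1 and 2.95 or below in the remaining livers.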
